A study of Mus musculus with 10 samples.

Results

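A 230-kb stretch of mm9 chromosome 12, chr12:57600001-57830000, that holds Nkx2-1, Nkx2-9 and Pax9 was described in 10 mouse leukaemia libraries profiled by reduced representation bisulfite sequencing. The stretch was selected on measured values, namely the higher methylation of knockin than of WT libraries there, so the levels below describe it and do not test it. All CpG cytosines listed in it were taken, which were 1798 of 8185408 positions in the whole data set. A position is the cytosine of 1 strand, since both strands of a CpG are listed apart. A position was used where every library compared had 5 or more reads on it, which left 353 positions in cMyc-Bcl2 leukaemia and 229 in MLL-AF9 leukaemia.

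The cMyc-Bcl2 groups were leukaemic spleen cells driven by cMyc, a growth-promoting transcription factor, and Bcl2, an inhibitor of apoptosis, with 2 Dnmt3b-knockin and 2 WT libraries. The MLL-AF9 groups were c-kit+ leukaemic spleen cells driven by MLL-AF9, a fusion oncoprotein of acute leukaemia, with 3 Dnmt3b-knockin and 3 WT libraries. Dnmt3b is a DNA methyltransferase that sets new methylation, and per the series' design text its knockin was inducible by tetracycline and served to compare high with physiological methylation. The labels used here give no age, strain, inducer dose or time, and are silent on whether replicates were separate animals; the spread between them may be technical. The oncogene and the c-kit sort cannot be told apart. Dnmt3b expression and the identity of the cells could not be checked in these files, which hold DNA methylation only.

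Nkx2-1, Nkx2-9 and Pax9 encode transcription factors of the embryo. Nkx2-1 and Nkx2-9 are homeodomain proteins of the NK2 family: Nkx2-1 is needed for thyroid, lung and ventral forebrain, and Nkx2-9 is made in the ventral neural tube. Pax9 is a paired-box protein needed for teeth, palate and thymus. CpG-rich DNA at such genes is usually unmethylated in normal tissue and often gains methylation in cancer, and these 3 genes are best known from organs other than blood.

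No mm9 annotation was used, so the genes were placed by their sequences. The RefSeq promoter sequences of build GRCm38.p6, 250 bases before to 50 after each start, were laid along the domain on their own strand so that their CpGs met the most listed positions. Each promoter took a place with no listed position off its CpGs. The promoter of Nkx2-1 met 14 listed positions, against 5 at its next best place, that of Nkx2-9 met 24 against 5, and that of Pax9 met 11 against 6. A wider search took every listed chromosome, but only positions with 5 or more reads in at least 1 library and places that met at least 6. In it Nkx2-9 went to the same place. The places of Nkx2-1 and Pax9 in the domain held 4 and 0 such positions, so that search could not find them. Its best places for these 2 genes tied elsewhere, so those 2 places rest on the search within the domain. The 250 bases before each start are shown because they fix where the methylation values lie relative to the genes. They run 5′ to 3′, and capitals mark CpGs with a listed cytosine.
Nkx2-1 promoter: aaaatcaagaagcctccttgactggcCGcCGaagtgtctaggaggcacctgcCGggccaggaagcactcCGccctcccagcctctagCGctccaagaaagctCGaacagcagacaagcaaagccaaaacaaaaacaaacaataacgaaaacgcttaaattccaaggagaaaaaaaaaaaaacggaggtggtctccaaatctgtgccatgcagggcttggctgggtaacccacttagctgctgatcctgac
Nkx2-9 promoter: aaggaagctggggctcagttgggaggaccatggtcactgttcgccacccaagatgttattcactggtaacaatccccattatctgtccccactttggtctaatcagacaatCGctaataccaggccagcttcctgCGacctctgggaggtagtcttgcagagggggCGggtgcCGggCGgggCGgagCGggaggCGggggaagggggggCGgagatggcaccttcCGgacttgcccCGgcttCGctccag
Pax9 promoter: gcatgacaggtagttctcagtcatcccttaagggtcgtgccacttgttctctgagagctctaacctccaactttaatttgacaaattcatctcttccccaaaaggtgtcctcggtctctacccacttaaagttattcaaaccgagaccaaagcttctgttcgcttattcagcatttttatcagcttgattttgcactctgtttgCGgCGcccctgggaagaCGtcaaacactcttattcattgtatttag
In mm9 the first lies at chr12:57637896-57638145 on the minus strand, the second at chr12:57714272-57714521 on the minus strand and the third at chr12:57796208-57796457 on the plus strand.

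Few reads fell on the promoters themselves. MspI, the enzyme of this assay, cuts at CCGG, a palindrome that reads alike on both strands. CCGG occurred 2 times in the 300-base promoter of Nkx2-1, 3 times in that of Nkx2-9 and 0 times in that of Pax9, and 52.8% of the 32851 RefSeq promoters of that length held it. Positions with 5 reads in at least 1 library numbered 4 in the Nkx2-1 promoter, 13 in the Nkx2-9 promoter and 0 in the Pax9 promoter. The 3 positions of the Nkx2-9 promoter covered in every cMyc-Bcl2 library averaged 34.9 and 5.34% in knockin libraries and 16.7 and 7.97% in WT libraries, and the groups overlapped. No promoter position was covered in every MLL-AF9 library. The results below therefore concern the covered DNA around the starts rather than the starts themselves.

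In cMyc-Bcl2 leukaemia the domain was methylated at 44.1 and 41.5% in knockin libraries, against 19.7 and 13.7% in WT libraries, as the mean over positions. Both knockin libraries lay above both WT libraries. The group means were 42.8% ± 1.80 in knockin and 16.7% ± 4.23 in WT (SD, n = 2 each), a difference of 26.1 points or 2.57 times. Over all autosomal positions covered alike, knockin libraries were at 32.5 and 31.2% and WT libraries at 29.0 and 28.5%, a difference of 3.11 points. Domain minus autosomal mean was thus 11.6 and 10.3 points in knockin libraries and -9.34 and -14.8 points in WT libraries. Single positions were higher in knockin at 309 of 353 and lower at 42, where 414760 of all 1040374 autosomal positions were higher and 292730 lower.

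In MLL-AF9 leukaemia the domain was at 31.1, 23.9 and 21.1% in knockin libraries, against 16.0, 23.1 and 17.2% in WT libraries. The groups overlapped, since WT replicate 2 lay above knockin replicate 3. The means were 25.4% ± 5.18 in knockin and 18.8% ± 3.81 in WT (SD, n = 3 each), a difference of 6.60 points, where autosomal positions differed by 2.32 points. Knockin replicate 1 was the highest library of this model, and without it the difference was 3.67 points. Positions were higher in knockin at 160 of 229 and lower at 68, where 279910 of all 654927 autosomal positions were higher and 148666 lower, so among positions that differed the split was close to that of all autosomes.

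**Figure D1:**
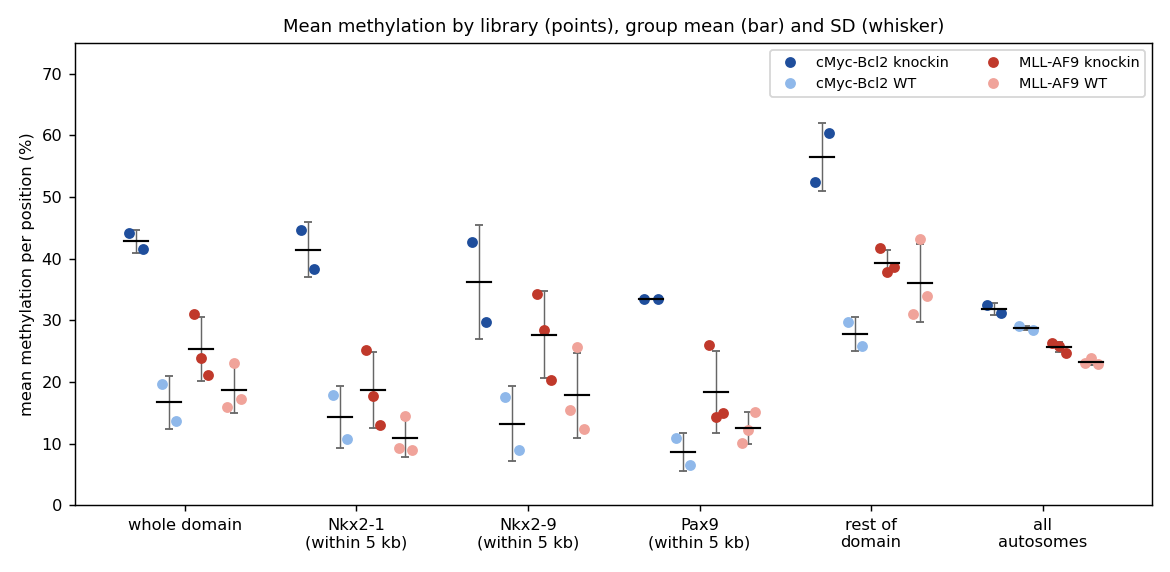
Mean methylation per position in percent (y axis) in the whole domain, within 5 kb of each placed start, in the rest of the domain and over all autosomes (x axis); points are libraries, bars group means and whiskers SD, with 2 libraries in each cMyc-Bcl2 group and 3 in each MLL-AF9 group. Both cMyc-Bcl2 knockin libraries, at 44.1 and 41.5% over the whole domain, sit above both WT libraries in every domain region, whereas the MLL-AF9 groups overlap in each of these.

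Counted by position without overlap between groups, 210 of the 353 cMyc-Bcl2 positions, or 59.5%, had both knockin libraries above both WT libraries, where 14.5% of all autosomal positions did. In MLL-AF9 it was 35 of 229, or 15.3%, against 5.41% of all autosomal positions. Since the domain was selected on these comparisons, neither share is evidence of its own. Neighbouring positions often lie on the same reads and are not independent of each other.

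The shares of positions by level also differed between groups. Positions between 20 and 80% made up 63.5 and 44.2% of the positions of the domain in cMyc-Bcl2 knockin libraries, against 28.9 and 20.1% in WT libraries. Positions over 80% made up 12.2 and 19.3% in cMyc-Bcl2 knockin libraries, against 3.68 and 2.55% in WT libraries. Partly methylated positions were thus the commonest class in both cMyc-Bcl2 knockin libraries. In bulk DNA, full methylation in some cells and partial methylation in all cannot be told apart. In MLL-AF9, positions between 20 and 80% made up 52.8, 35.8 and 31.9% in knockin libraries, against 24.0, 28.4 and 24.0% in WT libraries. Each MLL-AF9 knockin library lay above each WT library in that share. These shares were not taken over all autosomes for either model. The autosomal mean level was also higher in MLL-AF9 knockin libraries, at 26.3, 25.9 and 24.7%, against 23.1, 23.9 and 22.9% in WT libraries. Positions at exactly 0% made up 12.2, 13.1 and 14.4% in MLL-AF9 knockin libraries, against 48.0, 20.1 and 40.6% in WT libraries, while median reads per position were 16.0, 21.0 and 28.0 in knockin libraries and 12, 17.0 and 11.0 in WT libraries. The part of depth in the share at 0% was not tested.

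**Figure D2:**
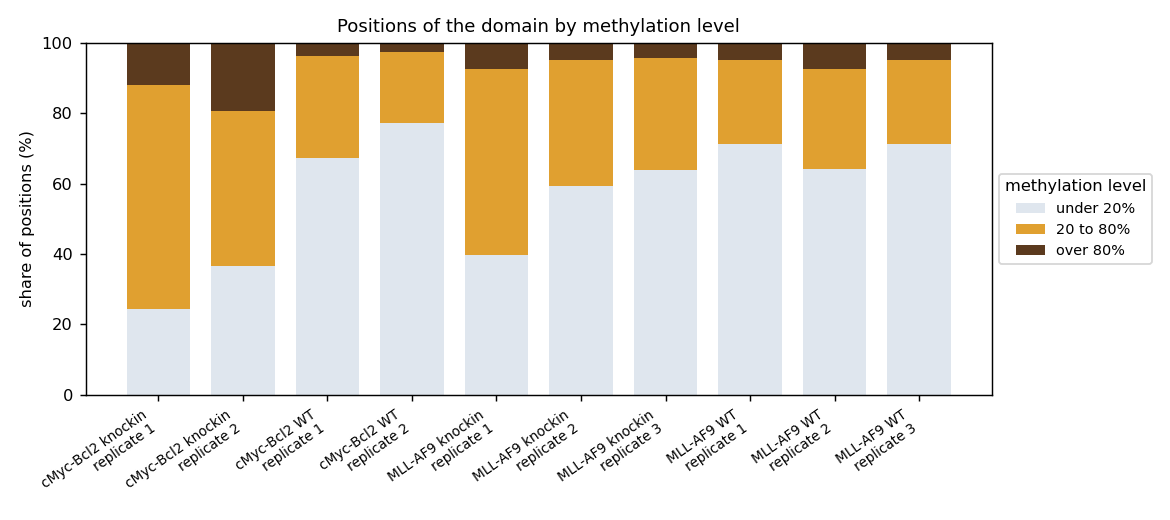
Share of the positions of the domain (y axis, percent) under 20%, from 20 to 80% and over 80% methylated in each library (x axis), over 353 positions in cMyc-Bcl2 and 229 in MLL-AF9. The middle class takes 63.5 and 44.2% in cMyc-Bcl2 knockin libraries, against 28.9 and 20.1% in cMyc-Bcl2 WT libraries.

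Along the domain, 33 of the 230 windows of 1 kb held a position with 5 reads, 27 of them in cMyc-Bcl2 and 21 in MLL-AF9 after the coverage rule. Most covered windows formed groups around the 3 starts, with a further group 15.6 to 17.2 kb downstream of the Nkx2-1 start, beyond the gene's length of 4974 bases. Windows with 10 or more positions, which were 15 of the 33, are termed densely covered. The count is of positions with 5 reads in at least 1 library, and CpG content was not measured. In these windows WT libraries were lowly methylated. There cMyc-Bcl2 knockin libraries averaged 42.0 and 40.2%, against 17.1 and 10.8% in WT libraries. In windows with under 10 positions they averaged 60.3 and 51.9%, against 40.1 and 36.5% in WT libraries. The difference was thus 27.2 points in the densely covered windows and 17.8 points in the others, both without overlap between groups. In MLL-AF9 the densely covered windows were at 27.7, 20.5 and 16.7% in knockin libraries and 12, 19.1 and 12% in WT libraries. The others were at 60.2, 52.8 and 58.4% in knockin libraries, against 49.9, 57.2 and 61.7% in WT libraries. The MLL-AF9 groups overlapped in both classes.

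**Figure D3:**
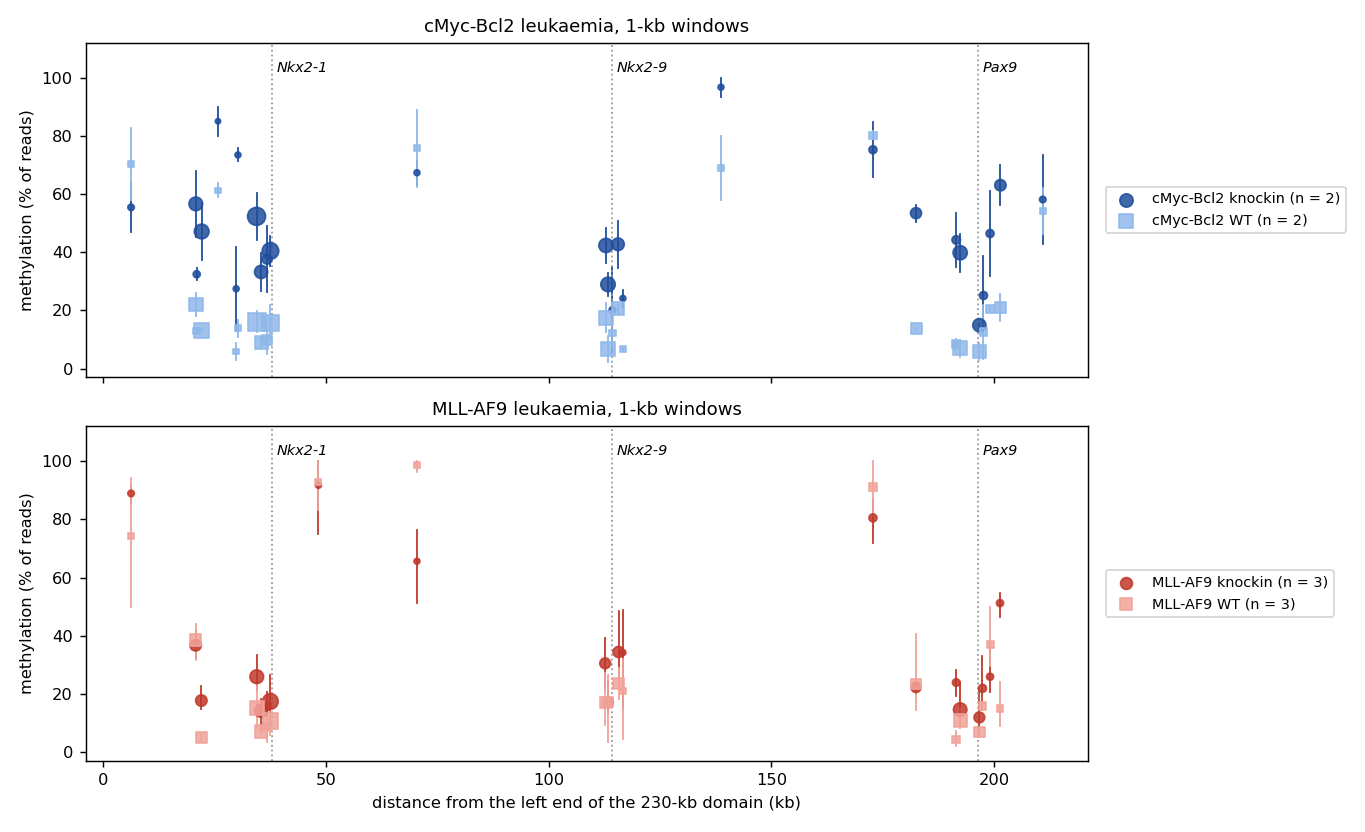
Methylation in percent of reads (y axis) of 1-kb windows along the domain (x axis, kb from its left end) in cMyc-Bcl2 (upper panel) and MLL-AF9 (lower panel); symbols are group means, larger with more positions, vertical lines span the libraries, and dotted lines mark the placed starts. Near the starts cMyc-Bcl2 knockin windows sit at 14.9 to 63.0%, and windows more than 20 kb from a start average 55.4% or more in every group.

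Near the Nkx2-1 start, all covered positions lay downstream, within the length of the gene. Whether they fall in exons or introns was not analysed here. Positions within 5 kb averaged 44.6 and 38.3% in cMyc-Bcl2 knockin libraries, against 17.9 and 10.8% in WT libraries (109 positions). In the window 3.10 to 3.72 kb downstream, 42 positions were at 44.1 and 60.4% in knockin libraries, against 19.7 and 12.5% in WT libraries. In the window nearest the start, 0.119 to 0.463 kb downstream, 35 positions were at 45.7 and 35.2% in knockin libraries, against 21.8 and 9.53% in WT libraries. The 2 windows between them differed by 24.4 and 28.0 points, so knockin exceeded WT in each of the 4 windows of the gene without overlap. In MLL-AF9 the positions within 5 kb were at 25.2, 17.7 and 13.0% in knockin libraries, against 9.30, 14.5 and 8.96% in WT libraries (80 positions), with overlap. Differences in the 4 windows ran between 6.83 and 10.6 points there.

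The further group of covered windows downstream of Nkx2-1 held a window, 15.6 to 15.9 kb from the start, that was higher in knockin in both models. Its 27 positions in cMyc-Bcl2 were at 37.4 and 56.9% in knockin libraries, against 12.5 and 13.8% in WT libraries. In MLL-AF9, 15 positions were at 22.7, 14.8 and 15.4% in knockin libraries, against 3.80, 5.42 and 6.06% in WT libraries. In this window all knockin libraries exceeded all WT libraries of their model. The window beside it, 16.9 to 17.2 kb from the start, differed by 34.5 points in cMyc-Bcl2, at 45.2 and 67.9% in knockin libraries against 25.8 and 18.2% in WT libraries. In MLL-AF9 it was at 36.1, 41.5 and 32.5% in knockin libraries and 39.8, 43.9 and 31.7% in WT libraries, a difference of -1.76 points. The window from 7.58 to 7.59 kb downstream had the largest difference of the domain in cMyc-Bcl2, 59.7 points, but it rested on 2 positions.

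Near the Nkx2-9 start, covered positions lay on both sides. Within 5 kb they averaged 42.7 and 29.7% in cMyc-Bcl2 knockin libraries, against 17.6 and 8.94% in WT libraries (75 positions), without overlap. Downstream, the window at 1.30 to 1.47 kb was at 48.2 and 36.4% in knockin libraries, against 22.6 and 12.5% in WT libraries. The window at 0.624 to 1.22 kb was at 32.9 and 24.8% in knockin libraries, against 11.2 and 2.23% in WT libraries. Upstream of the start the window at 1.05 to 1.55 kb was at 50.8 and 34.6% in knockin libraries, against 22.6 and 18.6% in WT libraries. These windows differed by 24.8, 22.2 and 22.1 points. The other 2 upstream windows rested on 3 and 2 positions and differed by 7.76 points at 0.0240 to 0.0550 kb, with overlap, and by 17.4 points at 2.39 to 2.45 kb. In MLL-AF9 positions within 5 kb averaged 34.3, 28.4 and 20.4% in knockin libraries, against 15.5, 25.6 and 12.4% in WT libraries (41 positions). These overlapped, as WT replicate 2 lay above knockin replicate 3.

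Near the Pax9 start the level differed between windows. Positions within 5 kb averaged 33.4 and 33.5% in cMyc-Bcl2 knockin libraries, against 10.9 and 6.48% in WT libraries (72 positions). The window just after the start, 0.0680 to 0.354 kb downstream, was low in each cMyc-Bcl2 library: its 21 positions were at 15.4 and 14.3% in knockin libraries, against 8.61 and 2.82% in WT libraries. In contrast, 25 positions 3.91 to 4.28 kb upstream were at 33.3 and 46.2% in knockin libraries, against 9.84 and 4.06% in WT libraries. Farther downstream, at 4.81 to 5.07 kb, 15 positions were at 56.2 and 69.8% in knockin libraries, against 25.6 and 16.5% in WT libraries. Between the start and that window, the 6 positions 2.58 to 2.65 kb downstream were at 61.1 and 31.7% in knockin libraries and 21.1 and 19.8% in WT libraries. Those 0.862 to 1.41 kb downstream, also 6, were at 38.7 and 11.4% in knockin libraries and 21.8 and 3.39% in WT libraries, with overlap. The difference in cMyc-Bcl2 was thus 9.17 points in the window beside the placed start, 32.8 points in that upstream and 42.0 points in the farthest downstream. The upstream window lies past the 3778 bases by which the RefSeq gene, a length of 21132 bases in GRCm38, reaches beyond this start. By that length it lies close to the 5′ end of the gene, though it is kilobases from the placed start.

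In MLL-AF9 the groups overlapped over the 51 positions within 5 kb of the Pax9 start. Knockin libraries averaged 26.0, 14.3 and 14.9% there, and WT libraries 10.1, 12.3 and 15.2%. The window with the most positions, 22 at 3.91 to 4.28 kb upstream, differed by 3.67 points, also with overlap. The window beside the start was at 21.1, 6.60 and 7.95% in knockin libraries, against 8.06, 5.31 and 7.32% in WT libraries. Knockin replicate 1 was high there and the groups overlapped. The window 4.81 to 4.89 kb downstream had the largest MLL-AF9 difference of the domain, 36.1 points over 4 positions, at 54.8, 52.4 and 46.5% in knockin libraries against 12.7, 24.0 and 8.82% in WT libraries. The window 4.95 to 5.02 kb upstream differed by 19.6 points over 5 positions, at 28.1, 24.3 and 19.3% in knockin libraries against 3.61, 7.37 and 1.96% in WT libraries. These windows on both sides of Pax9, together with that 15.7 to 15.9 kb downstream of Nkx2-1, were the 3 of 18 MLL-AF9 windows with at least 3 positions in which all knockin libraries exceeded all WT libraries, where 18.9% of all windows did so. In cMyc-Bcl2 16 of 21 did, where 23.5% of all windows did. In the 3 MLL-AF9 windows the cMyc-Bcl2 groups did not overlap either, as in most cMyc-Bcl2 windows of the domain. The share of all windows without overlap in both models was not counted.

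**Figure D4:**
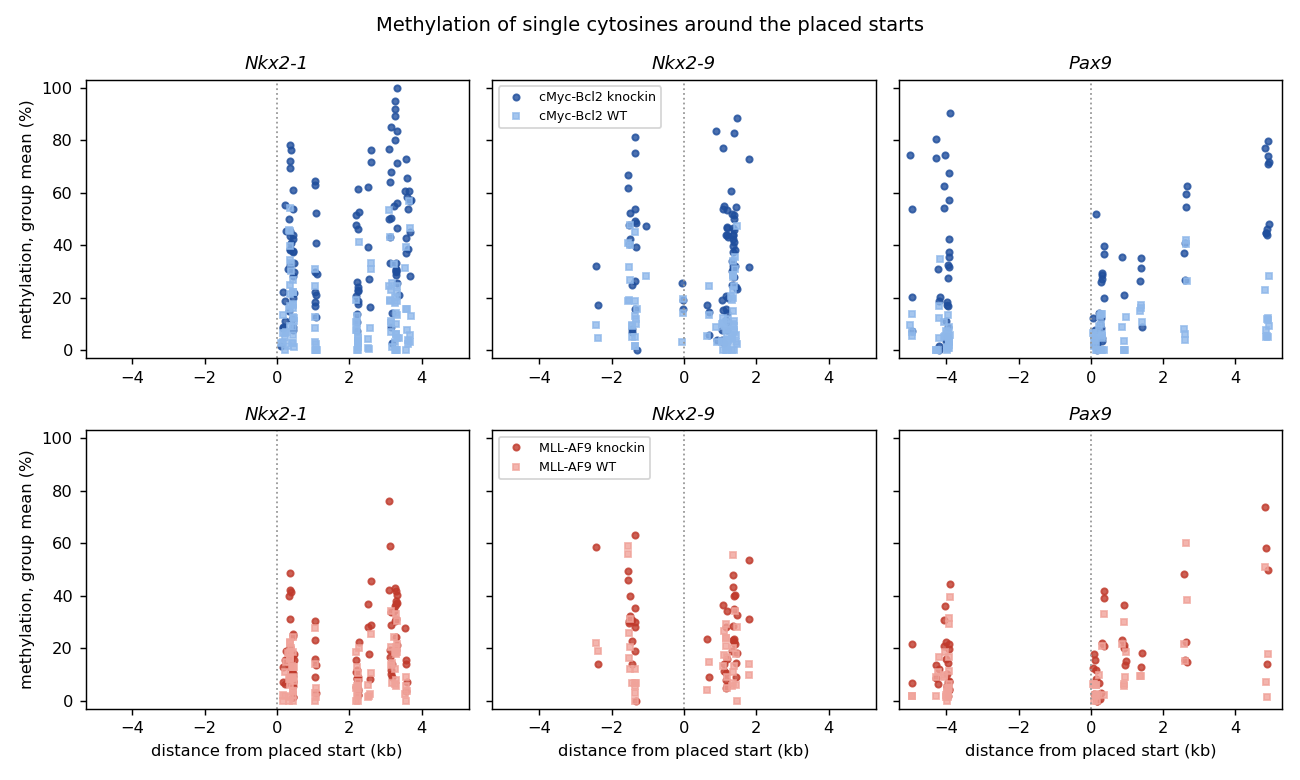
Group mean methylation in percent (y axis) of single cytosines within 5 kb of each placed start (x axis, kb, negative upstream) in cMyc-Bcl2 (upper row) and MLL-AF9 (lower row). In cMyc-Bcl2 the knockin positions spread over most of the scale except just after the Pax9 start, where the window averages 14.9%; around Nkx2-1 every covered position lies downstream.

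Farther from Pax9, a densely covered window 13.9 to 14.1 kb upstream of the start was higher in knockin in cMyc-Bcl2 without overlap. In cMyc-Bcl2 its 14 positions were at 50.5 and 56.2% in knockin libraries, against 13.5 and 13.8% in WT libraries, a difference of 39.7 points. In MLL-AF9 11 positions were at 24.0, 20.1 and 22.4% in knockin libraries and 14.5, 40.7 and 14.7% in WT libraries, a difference of -1.14 points in which WT replicate 2 was the high library. The window 4.95 to 5.02 kb upstream of Pax9, higher in knockin in MLL-AF9, was at 34.9 and 53.4% in cMyc-Bcl2 knockin libraries, against 6.72 and 10% in WT libraries. Beside Nkx2-9, the window 1.34 to 1.80 kb downstream was at 30.8, 39.1 and 21.6% in MLL-AF9 knockin libraries and 14.4, 27.3 and 9.43% in WT libraries, with overlap.

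In MLL-AF9, 3 densely covered windows had differences just under 0: the windows of -1.76 and -1.14 points above, and that 0.624 to 1.18 kb downstream of Nkx2-9. The last held 12 positions at 24.5, 13.3 and 13.4% in knockin libraries and 21.4, 26.4 and 3.33% in WT libraries, a difference of -0.0119 points with overlap. The window with the largest negative MLL-AF9 difference, 32.5 to 32.6 kb upstream of Nkx2-1, had 2 positions at 69.0, 51.3 and 76.5% in knockin libraries, against 100, 96.3 and 100% in WT libraries. In cMyc-Bcl2 the same 2 positions were at 71.4 and 63.2% in knockin libraries and 88.9 and 62.5% in WT libraries, with overlap. A window 31.5 to 31.6 kb downstream of Nkx2-1 was at 46.9 and 63.9% in cMyc-Bcl2 knockin libraries and 82.6 and 57.9% in WT libraries, also with overlap. In MLL-AF9 that window was at 91.3, 90.2 and 85.3% in knockin libraries and 50, 94.1 and 78.8% in WT libraries, so its direction was not shared. The window 23.6 to 23.7 kb upstream of Pax9 was highly methylated in every group, at 84.6 and 65.8% in cMyc-Bcl2 knockin libraries and 81.5 and 78.8% in WT libraries. In MLL-AF9 it was at 82.9, 71.8 and 86.9% in knockin libraries and 81.0, 92.5 and 100% in WT libraries. The 4 positions 2.58 to 2.65 kb downstream of Pax9 were at 21.7, 20.5 and 35.4% in MLL-AF9 knockin libraries and 31.5, 29.6 and 50% in WT libraries, with overlap.

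In the fit of all 4 groups, a quasi-binomial logistic model of the reads per window with limma-moderated dispersion, 17 windows of the domain had at least 3 positions covered in all 10 libraries. A call needed a Benjamini-Hochberg adjusted p under 0.05 over all 40428 windows and a difference of at least 10 points. For knockin against WT in cMyc-Bcl2, 10 of the 17 were called higher and 0 lower, where 5.63% of all windows were called higher. These were the 2 densely covered windows 15.7 to 17.2 kb downstream of Nkx2-1 and 3 windows of the Nkx2-1 gene. The rest were 1 beside Nkx2-9 and 4 between 14.1 kb upstream and 4.89 kb downstream of Pax9. The median difference was 26.3 points in the domain and 0.120 points over all windows. These calls were lost under another fit, another test and without a single library. With the 2 cMyc-Bcl2 groups fitted alone 0 of 21 windows were called, where 1 of all 71497 windows was. In that fit, which also used more positions, 15 of the 21 had an unadjusted p under 0.05, as did 8865 of all. By limma on M-values 0 of 17 were called, and 0 of all 40428 windows. Such a p was found in 12 of the 17 and in 5321 of all. With so few calls over all windows, these 2 settings do not single out the domain. Without cMyc-Bcl2 WT replicate 2, the lowest library, the calls were lost in the domain, and most calls over all windows were lost too. That setting left the cMyc-Bcl2 WT group without replicates. The difference of the domain mean was then 22.8 points.

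In MLL-AF9 the same fit called 0 of the 17 windows, while 3 had an unadjusted p under 0.05, as did 4407 of all 40428 windows. limma on M-values likewise called 0, with 3 such windows, against 5241 of all. Over all windows 0% were called higher in MLL-AF9 knockin. The median difference was 7.16 points in the domain and 1.12 points over all windows. For the mean of both knockin effects, 6 of 17 windows were called higher and 0 lower, where 3.11% of all windows were called higher. They were the window 15.7 to 15.9 kb downstream of Nkx2-1, 2 windows of the Nkx2-1 gene, and the windows 4.95 to 5.02 kb upstream, 3.91 to 4.28 kb upstream and 4.81 to 4.89 kb downstream of Pax9. A call on this mean can come mainly from cMyc-Bcl2. The window 3.91 to 4.28 kb upstream of Pax9 differed by 37.4 points in cMyc-Bcl2 and 3.77 points in MLL-AF9. By limma on M-values 3 of 17 were called, and 171 of all 40428 windows, against 1269 in the fit of 4 groups. Without cMyc-Bcl2 WT replicate 2, which left its group without replicates, calls fell both in the domain and over all windows.

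**Figure D5:**
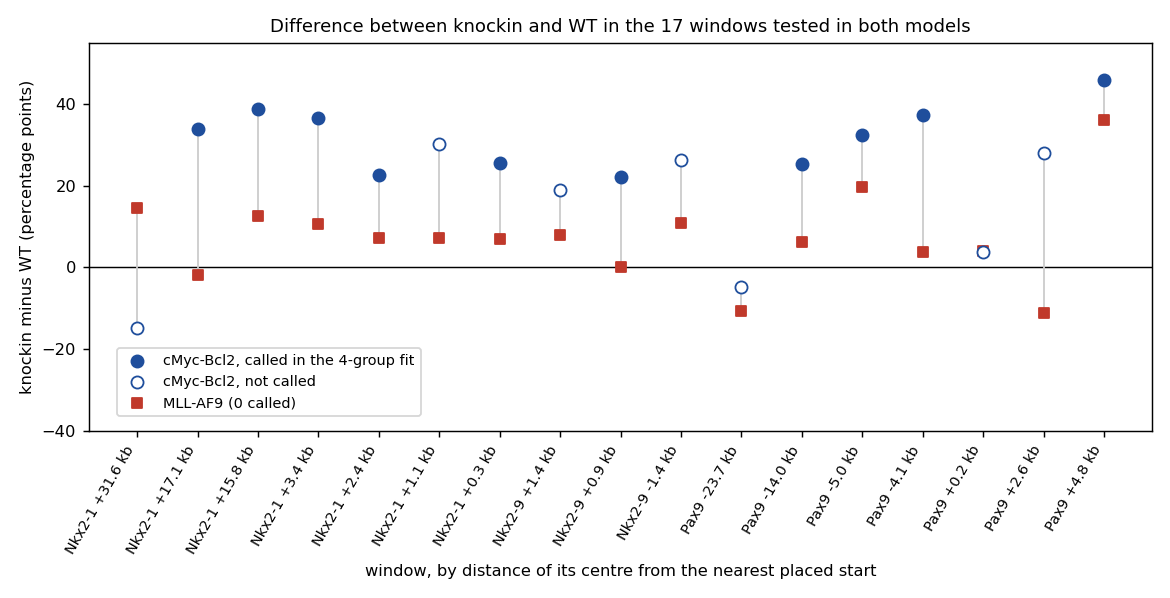
Knockin minus WT in percentage points (y axis) in the 17 windows fitted in all 10 libraries, in order along the chromosome and named by distance in kb from the nearest placed start (x axis, negative upstream); circles are cMyc-Bcl2, filled where called, and squares MLL-AF9. The cMyc-Bcl2 difference is above 0 in 15 of 17 windows and the MLL-AF9 difference in 13 of 17.

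The knockin effect was larger in cMyc-Bcl2 than in MLL-AF9 in 15 of the 17 windows, with a median of 18.7 points, against -0.546 points over all windows. By the interaction term of the fit 0 were called, while 5 of 17 had an unadjusted p under 0.05, as did 4438 of all 40428 windows. limma on M-values called 0, with 3 such windows, against 3659 of all. Over all windows 0% were called with a larger effect in cMyc-Bcl2. A difference between the models in the domain was therefore not shown window by window. Over the 211 positions covered in all 10 libraries, cMyc-Bcl2 knockin libraries were at 44.4 and 42.0%, and MLL-AF9 knockin libraries at 30.7, 23.8 and 20.3%, without overlap. The comparison of knockin libraries between models also carries the oncogene and the c-kit sort.

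Without the knockin the models were close. cMyc-Bcl2 WT libraries were at 19.8 and 13.8% and MLL-AF9 WT libraries at 15.3, 21.8 and 16.9% over 218 positions, a difference of -1.20 points with overlap. The fit called 0 of 17 windows between the WT groups, with a lowest adjusted p of 0.219 (limma-moderated, Benjamini-Hochberg). An unadjusted p under 0.05 was found in 2 of the 17 and in 5385 of all 40428 windows. limma on M-values called 0, with 0 such windows, against 5002 of all. Over all windows 0.994% were called in either direction. Around Pax9, cMyc-Bcl2 WT libraries were lower, at 8.07 and 5.65% against 10.6, 11.5 and 15.1% in MLL-AF9 WT libraries (48 positions), without overlap. The window 2.58 to 2.65 kb downstream of Pax9 had the largest difference among windows with at least 3 positions, at 17.8 and 16.7% in cMyc-Bcl2 WT libraries against 31.5, 29.6 and 50% in MLL-AF9 WT libraries. The window 15.7 to 15.9 kb downstream of Nkx2-1 went the other way, at 11.4 and 13.3% in cMyc-Bcl2 WT libraries against 3.80, 5.42 and 6.06% in MLL-AF9 WT libraries. Around the Nkx2-1 start cMyc-Bcl2 WT libraries were at 18.8 and 10.2%, against 9.30, 14.5 and 8.96% in MLL-AF9 WT libraries, and overlapped.

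Depth moved with the groups. As a share of all autosomal read calls, the domain took 262 and 235 ppm in cMyc-Bcl2 knockin libraries, against 310 and 323 ppm in WT libraries. In MLL-AF9 it was the other way, with 292, 269 and 310 ppm in knockin libraries, against 251, 241 and 265 ppm in WT libraries. Libraries held 14446933 to 46762220 read calls, of which 3753 to 14832 lay in the domain. Mitochondrial CpGs, a guide to unconverted cytosines, were read as methylated in 0.926 and 1.15% of calls in cMyc-Bcl2 knockin libraries and 2.22 and 0.910% in WT libraries, and in 1.82 to 3.20% in MLL-AF9. The part of these values in the results was not tested.

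The edges of the selection were also looked at in cMyc-Bcl2. Positions whose lowest library had exactly 5 reads, just inside the coverage rule, were at 53.1 and 53.1% in knockin libraries and 21.3 and 22.5% in WT libraries (16 positions). Those at 4 reads, just outside it, were at 47.6 and 50.5% in knockin libraries and 29.9 and 31.2% in WT libraries (31 positions). The nearest window with 3 positions outside the left end, 16.1 kb away, was at 100 and 94.9% in knockin libraries and 79.7 and 96.3% in WT libraries, and that outside the right end, 249 kb away, at 82.5 and 86.5% against 85.7 and 94.8% in WT libraries. The nearest windows inside the ends, 6.28 and 19.1 kb from them, differed by -14.9 and 3.95 points with overlap.

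Promoters of related genes were placed over all listed chromosomes, as in the wider search above. Of 18 other genes of the NK2, Pax and Foxa families and of the neighbourhood, 14 had a RefSeq promoter sequence. Of their promoters, 8 of 7 genes took a place on their own chromosome and strand and were used. A further 5 promoters took their best place on another chromosome or strand and were not used. Placing by CpG spacing over all chromosomes can therefore go wrong. Of the 8 promoters used, 6 had 3 or more covered positions in each model. All 6 were higher on average in knockin libraries, by 0.0806 to 14.8 points in cMyc-Bcl2, without overlap in 3, and by 0.567 to 15.4 points in MLL-AF9, without overlap in 4. Of all 1-kb windows, 23.5% in cMyc-Bcl2 and 18.9% in MLL-AF9 were higher in knockin without overlap. The promoter of Pax6, a regulator of eye and brain development, was at 15.1 and 22.0% in cMyc-Bcl2 knockin libraries, against 10.6 and 7.66% in WT libraries. In MLL-AF9 it ranged between 13.5 and 24.4% in knockin libraries, against 2.24, 7.29 and 2.10% in WT libraries. The Pax6 promoter did not overlap between groups in either model. A promoter of Foxa2, an endoderm regulator, was at 28.7 and 11.4% in cMyc-Bcl2 knockin libraries, against 8.06 and 2.50% in WT libraries. In MLL-AF9 the Foxa2 promoter was at 9.04, 2.67 and 2.45% in knockin libraries and 0, 3.53 and 0.588% in WT libraries, with overlap. Promoters of Nkx2-3, Nkx2-4 and Pax2, 4 in all, stayed under 10% on average in each group.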

How the data were processed

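Per the labels' protocols, DNA from leukaemic spleens of mice was cut with MspI, bisulfite converted and sequenced. The submitters' processing notes name CASAVA, Trim Galore 0.2.2, Bismark 0.7.4, methylKit and build mm9; their settings are not stated there. The deposited files list, per CpG cytosine, a count of methylated and of unmethylated reads, joined as text. Strands were kept apart: of 570 positions in the domain with 5 reads in some library, 149 were followed by one 1 base on. Levels are means over positions, or pooled reads per 1000-base window. Windows with 3 or more positions on the 19 autosomes were fitted with a quasi-binomial logistic model of 4 groups, a dispersion of at least 1 that was moderated with limma 3.58.1 (R 4.3.3), an F-test and Benjamini-Hochberg adjustment. The rest used Python 3.11.15, scipy 1.17.1, pandas 2.3.3 and numpy 2.4.6. The fit was run on simulated data, but no result of that run is given here. The domain, its genes, gene lists and tests were chosen with earlier results of these data known. The text names the 3 genes, every called window of the domain by place, and the windows with the largest differences either way. Placing promoters within the domain and joining strands were added after the data were seen. Reads carry no molecular identifiers, so copies of 1 DNA molecule cannot be told from separate molecules, and depth may exceed the molecules read. The median window dispersion was 2.23 over all windows and 5.99 in the domain, where counting error alone would give about 1. Sequences are from RefSeq, GRCm38.p6. Coordinates of that build gave gene lengths and the reach of a gene beyond its start, and the chromosome and strand that placed promoters had to match. None was converted to mm9.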

Additional observations from a re-analysis of the deposited data

How the results depend on the processing

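The differences of domain means between groups moved by less than 1 SD of the replicates, taken as the larger of the 2 group SDs. This held under each alternative that gave a value: 10 or 20 reads, pooled reads, window means, common positions, joined strands and leaving out each library. In cMyc-Bcl2 that SD was 4.23, of the WT group, and window means moved the difference from 26.1 to 21.9 points. The knockin SD was smaller, at 1.80. The levels moved more: at 10 reads the MLL-AF9 means were 19.5% in knockin and 13.2% in WT. No 20-read value could be had for MLL-AF9 or the WT comparison, or for any window count, because no position or window of the domain was left. Leaving out 1 library gave differences of 3.67 to 8.74 points in MLL-AF9, 22.8 to 28.7 points in cMyc-Bcl2 and -3.71 to 1.31 points between WT groups, whose sign is therefore not settled. Counts of windows called in the domain moved more. For cMyc-Bcl2, 10 in the fit of 4 groups became 4 of 7 at 10 reads, 6 of 20 in windows with 1 or more positions, 0 of 21 with 2 groups fitted alone and 0 of 17 by limma on M-values; leaving out 1 library gave 0 to 11. Over all windows, the fit of 4 groups called 2488 of 40428 in either direction for cMyc-Bcl2. At 10 reads 1420 of 22907 were called, and 2312 of 67439 in windows with 1 or more positions. With 2 groups fitted alone 1 of 71497 was called, and by limma on M-values 0 of 40428. At 10 reads fewer windows were left to test, and the cause of the other shifts was not tested. For the mean of both models, 6 became 3 by limma on M-values, and leaving out 1 library gave 2 to 8. MLL-AF9, the interaction and the WT groups had 0 calls in the domain in every alternative run. With strands joined, a choice made after seeing the data, 9 and 7 of 19 windows were called for cMyc-Bcl2 and for the mean. Over all 42951 windows 2609 and 1324 were called there. For the mean, limma on M-values called 171 of all 40428 windows, against 1269 in the fit of 4 groups. No paired analysis was possible because replicate numbers were given in accession order and pair no samples. Depth limits the domain to 211 of 1798 positions covered in all libraries.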
